A study of Mus musculus with 6 samples.

Results

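miR-296 and miR-298 are a pair of microRNAs (miRNAs) encoded side by side next to the imprinted Gnas locus on mouse chromosome 2. Each precursor gives an arm from its 5′ side and an arm from its 3′ side, so 4 rows of the deposited table belong to the pair: mmu-miR-296-5p, mmu-miR-296-3p, mmu-miR-298-5p and mmu-miR-298-3p, out of 1522 rows. They were chosen by name, after an earlier look at the same comparison of groups in which miR-296-3p was among the miRNAs with the lowest p on the lower side. The comparison of groups is therefore given for them as a description, and no test of it is used as support. All 4 passed the filter on low values, a minimum of 1 RPM in any 3 libraries, as did 649 rows in all; RPM is the number of tags of a miRNA scaled to the depth of its library.

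The cells were hippocampal neural stem cells, which divide and give rise to neurons and glia; they were taken with a neural tissue dissociation kit on postnatal day 3 from male pups of the strain C57BL/6J, and their small RNA was sequenced. In the group called GDE, for gestational dexamethasone exposure, each dam had been given 1 mg/kg of the synthetic glucocorticoid dexamethasone intraperitoneally every day between embryonic days E14.5 and E18.5. In the Control group the dams had received saline on the same days, and both groups share strain, sex, age and tissue. Each group had 3 libraries, which the design text assigns to independent litters; the library titles call the groups IUGR and Normal, and no sorting step for stem cells is stated.

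A miRNA is cut from a hairpin precursor as a short duplex, and usually the strand from one arm is kept by an Argonaute protein while the other is degraded. The kept strand binds messenger RNAs through its seed, the bases near its 5′ end, and lowers their translation or stability. The Gnas locus encodes the stimulatory G protein alpha subunit and several alternative transcripts, and its antisense transcript Nespas is made from the paternal chromosome. miR-296 and miR-298 have been described as paternally expressed members of this imprinted cluster. miR-296-5p has been reported to target the coding sequence of the pluripotency factor Nanog in differentiating mouse embryonic stem cells, miR-296 to act in endothelial cells during angiogenesis, and miR-298-5p to target Bace1, the beta-secretase that cleaves the amyloid precursor protein.

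The mature sequences are printed to show that the 4 arms have different seeds and how much G and C each holds. They are from RefSeq (GRCm38.p6), written 5′ to 3′, and the capitals mark the seed, bases 2 to 8.
mmu-miR-296-5p: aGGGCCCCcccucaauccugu
mmu-miR-296-3p: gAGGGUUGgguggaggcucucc
mmu-miR-298-5p: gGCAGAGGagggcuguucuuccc
mmu-miR-298-3p: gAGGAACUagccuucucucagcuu
The 4 seeds differ, and none of them occurs in another of the 1679 mature mouse miRNAs of the reference. An unshared seed is common there, since 1211 of the 1679 (72.1%) have one. Bases 2 to 7 of miR-296-5p occur in 1 other miRNA, miR-5621-3p, which averaged 0.595 RPM over the 6 libraries and did not pass the filter. G and C make up 66.7% of miR-296-5p, 68.2% of miR-296-3p, 65.2% of miR-298-5p and 50.0% of miR-298-3p, beside a median of 50.0% over the 960 rows of the table that matched a RefSeq sequence. Of those 960, 2 hold 7 C in a row, miR-296-5p and miR-1249-3p.

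The hairpins show how the arms pair with each other, and here the capitals mark the 5p arm and then the 3p arm.
Mir296: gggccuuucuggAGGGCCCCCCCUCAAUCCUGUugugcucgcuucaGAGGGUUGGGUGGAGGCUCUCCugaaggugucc
Mir298: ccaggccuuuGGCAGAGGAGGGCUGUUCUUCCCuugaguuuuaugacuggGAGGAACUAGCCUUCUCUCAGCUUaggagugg
RNAfold predicted 18 base pairs between the arms of Mir296, with a folding energy of -43.2 kcal/mol over 79 bases, and 20 pairs between those of Mir298, with -42.7 kcal/mol over 82 bases. In GRCm38, the assembly also called mm10, Mir296 lies at chr2:174267047-174267125 and Mir298 at chr2:174267504-174267585, both on the minus strand and 378 bases apart. No other annotated gene of GENCODE M21 overlaps them. The nearest gene on the side of Gnas is Nespas, on the same strand at chr2:174281237-174295436, which ends 13651 bases from the precursors, so that both lie downstream of it. Gnas itself, on the plus strand at chr2:174284320-174346744, begins 16734 bases away.

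The depth of the libraries ran from 11751000 to 12385000 tags, and 24.1% to 27.8% of a library's tags were in the table. The 18 most abundant miRNAs, all above 5000 RPM on average, lay between 5980 and 9333 RPM, and their SD within a group had a median of 0.05 (log2 scale) beside 0.29 over all tested miRNAs; why levels flatten at the top was not tested, and the 4 arms lie far below that range. Control replicate 1 lay farthest out on the first principal component and GDE replicate 3 on the second, so results that rest on them are also given without them. Of the marker lists, the 6 neural progenitor miRNAs summed to 18190 to 20240 RPM in GDE and 18640 to 21120 RPM in Control. Most of that sum was miR-9-5p (means of 8389 RPM in GDE and 8427 RPM in Control) and miR-9-3p (7882 and 7915 RPM). Both lie in the range above 5000 RPM where levels flatten, so the sum says little about progenitor content. The 6 neuron miRNAs summed to 2619 to 3113 RPM in GDE and 2730 to 3044 RPM in Control.

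miR-296-5p was the most abundant of the arms. Its level was 687, 439.8 and 385 RPM in GDE replicates 1, 2 and 3, and 704, 489.7 and 609 RPM in Control replicates 1, 2 and 3. The groups overlapped, since GDE replicate 1 lay above Control replicates 2 and 3, and the means were 503.9 ± 161 and 600.8 ± 107 RPM (SD, n = 3 each). The log2 fold of GDE over Control on the log2(RPM + 1) scale was -0.28 (SE 0.24). It depended on single libraries, with -0.53 without GDE replicate 1, -0.42 without Control replicate 2, -0.16 without Control replicate 1 and -0.11 without GDE replicate 3. By mean level over the 6 libraries this arm ranked 72 of 649.

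miR-296-3p, the opposite strand of the same duplex, differed most between the groups. Its level was 158, 88.6 and 23.6 RPM in the GDE libraries and 332, 206 and 223 RPM in the Control libraries. All GDE libraries lay below all Control libraries, with GDE replicate 3 at 286 tags (95% Poisson interval 20.9 to 26.5 RPM, counting error only) far below the other 2. The means were 90.0 ± 67.2 RPM in GDE and 254 ± 68.2 RPM in Control (SD, n = 3 each), so the mean was 64.6% lower in GDE, and the log2 fold was -1.82 (SE 0.61). This was the second lowest fold of the 649 tested; the lowest, -2.66, belonged to a predicted miRNA, and the next after miR-296-3p was miR-7a-2-3p at -1.45. Without GDE replicate 3 the mean of miR-296-3p was 51.5% lower and the log2 fold -1.06. Without both GDE replicate 3 and Control replicate 1 the means were 123 and 215 RPM, 42.7% lower in GDE, with a log2 fold of -0.85.

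miR-298-5p, the more abundant arm of the neighbouring hairpin, was nearly level within GDE. It stood at 99.3, 94.0 and 96.5 RPM in GDE and at 158, 69.5 and 109 RPM in Control. The Control libraries lay on both sides of all GDE libraries, and the means were 96.6 ± 2.61 and 112 ± 44.6 RPM (SD, n = 3 each). The log2 fold was -0.14 (SE 0.30), and without Control replicate 1 it was 0.15, on the other side of 0, and -0.44 without Control replicate 2.

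miR-298-3p was the least abundant arm, at rank 276 of 649. It stood at 14.9, 18.6 and 19.7 RPM in GDE and at 31.8, 19.6 and 16.0 RPM in Control. The groups overlapped, with Control replicate 1 above the other 5 libraries. The means were 17.7 ± 2.54 and 22.5 ± 8.29 RPM (SD, n = 3 each) and the log2 fold was -0.28 (SE 0.29), which became -0.01 without Control replicate 1, -0.16 without GDE replicate 1 and -0.48 without Control replicate 3.

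**Figure D1:**
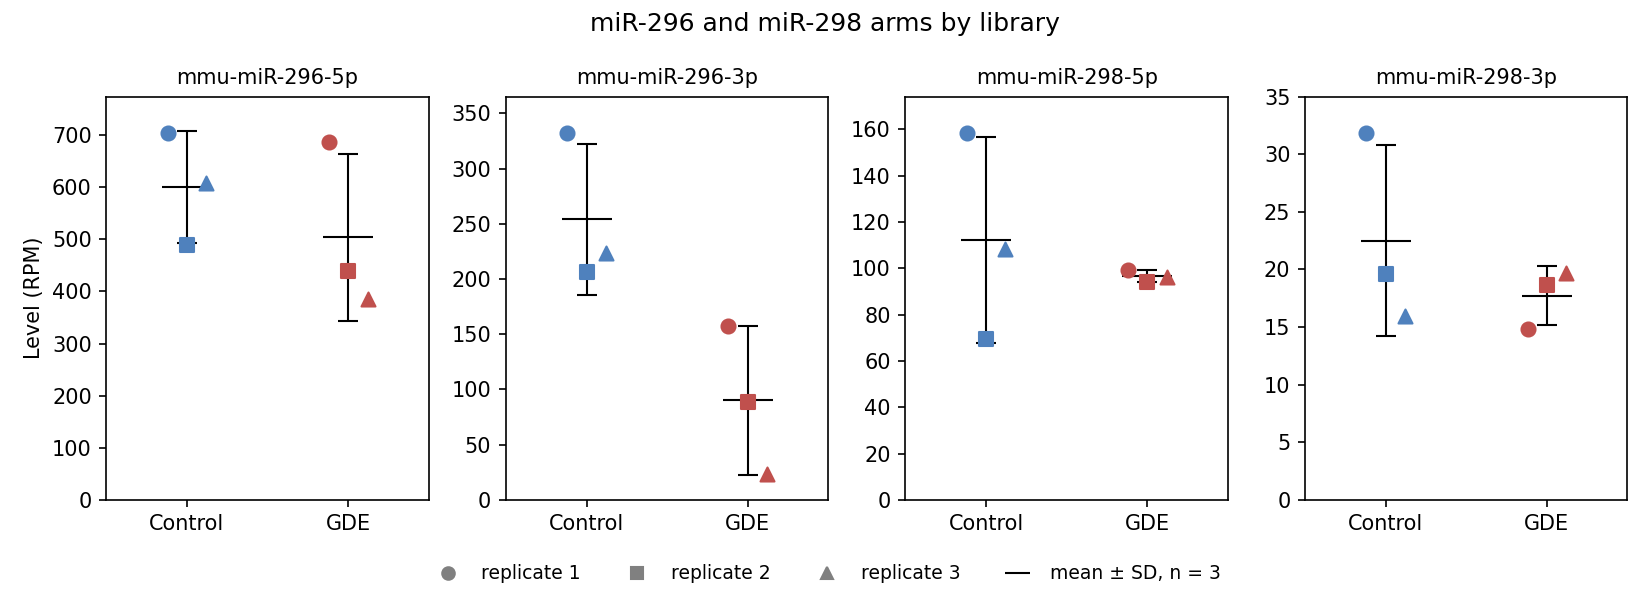
Level of each arm in RPM (vertical axes from 0, each panel with its own scale) in the Control and GDE libraries; points are libraries, with the shape giving the replicate number, and lines are the mean ± SD (n = 3). The groups are separate for miR-296-3p, with GDE at 23.6 to 158 RPM and Control at 206 to 332 RPM, and overlap for the other 3 arms.

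Read side by side, all 4 log2 folds were negative, as were 397 of the 649 tested (61.2%), whose median was -0.07. Control replicate 1 was the highest library for each of the 4 arms, and GDE replicate 3 the lowest for both miR-296 arms but for neither miR-298 arm. With each library's table scaled to the same total, GDE replicate 1 was the highest for miR-296-5p and the mean of miR-296-3p was 63.4% lower in GDE. Limma, with Benjamini-Hochberg adjustment over all 649, called 0 of the 4 arms, beside 0.308% of all tested (2 of 649). At an unadjusted p under 0.05 in limma there was 1 of the 4, miR-296-3p, beside 8.63% of all tested (56 of 649). On the recovered tags edgeR, DESeq2 and limma-voom also called 0 of the 4, beside 0.308%, 0.77% and 0.154% of all. Groups that did not overlap, with GDE lower, were found for 1 of the 4 arms and for 10% of all tested (65 of 649). Since this contrast chose the pair, nothing is read from these counts. In bulk RNA, fewer cells that hold a miRNA and less of it per cell cannot be told apart.

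The balance of the arms was described next, because both strands of a duplex come from the same hairpin in the same library. It is made from the same levels, so for miR-296 it restates the folds of its arms. For miR-296 the ratio of 5p over 3p was 4.35, 4.96 and 16.3 in the GDE libraries and 2.12, 2.37 and 2.73 in the Control libraries. All GDE ratios lay above all Control ratios, also without GDE replicate 3. Put as a share of the tags of both arms, the 3p arm of miR-296 made up 18.7% (95% Wilson interval 17.9 to 19.5), 16.8% (15.9 to 17.7) and 5.77% (5.15 to 6.45) in GDE. In Control the share was 32.1% (31.2 to 32.9), 29.6% (28.7 to 30.6) and 26.8% (26.0 to 27.7). The intervals cover counting error only, as amplified tags are not independent molecules.

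For miR-298 the 5p over 3p ratio was 6.68, 5.05 and 4.90 in GDE and 4.98, 3.54 and 6.79 in Control, and the groups overlapped. The 3p arm of miR-298 made up 13.0%, 16.5% and 17.0% of its tags in GDE and 16.7%, 22.0% and 12.8% in Control. The 2 neighbouring hairpins thus gave separate arm shares in 1 case and overlapping shares in the other.

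**Figure D2:**
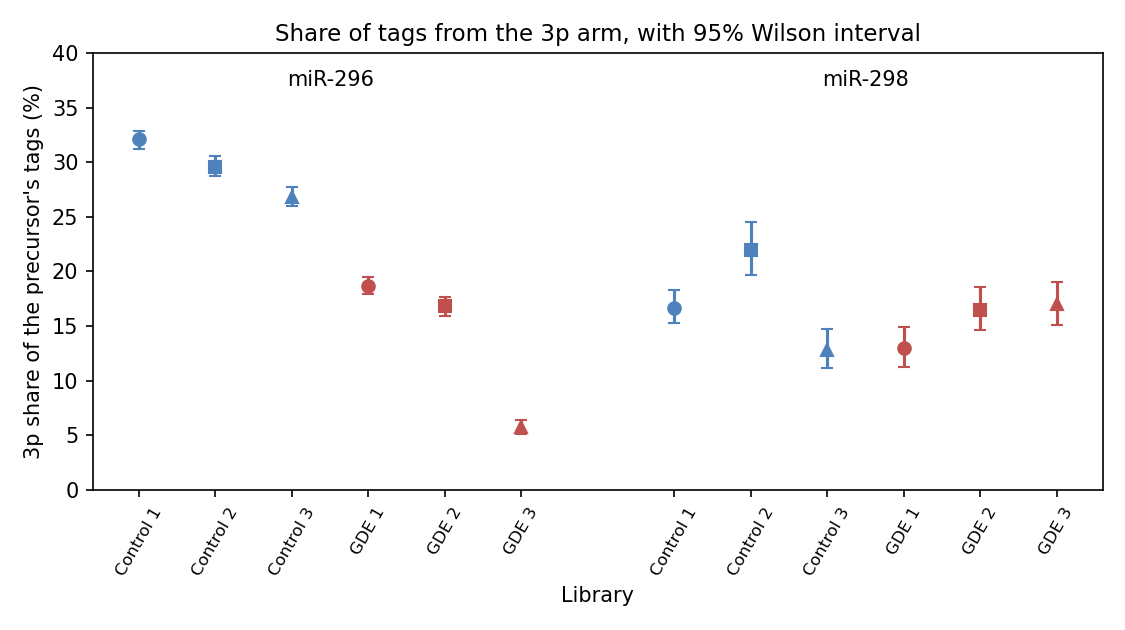
Share of the tags of each precursor that came from its 3p arm (vertical axis, percent) in each library; points are libraries and bars 95% Wilson intervals. For miR-296 the GDE libraries lie at 5.77% to 18.7% and the Control libraries at 26.8% to 32.1%. For miR-298 the groups overlap, with GDE at 13.0% to 17.0% and Control at 12.8% to 22.0%.

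Over all 155 precursors with both arms past the filter, the log2 arm ratio of miR-296 changed by 1.54 (SE 0.48) in GDE against Control, the highest value of all. The next was miR-1264, at 1.23, and the median size of change was 0.24. For miR-298 the change was 0.14 (SE 0.29). Without GDE replicate 3 the change for miR-296 was 0.95, and without both GDE replicate 3 and Control replicate 1 it was 0.86. Limma called 0 of the 2 precursors and 0% of all (0 of 155), and at an unadjusted p under 0.05 in limma there was 1 of the 2, miR-296, beside 5.81% of all (9 of 155). Ratios that did not overlap and were higher in GDE were found for 1 of the 2 and likewise for 9 of the 155. The arm ratio is made from the levels that chose the pair, so it too is a description.

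**Figure D3:**
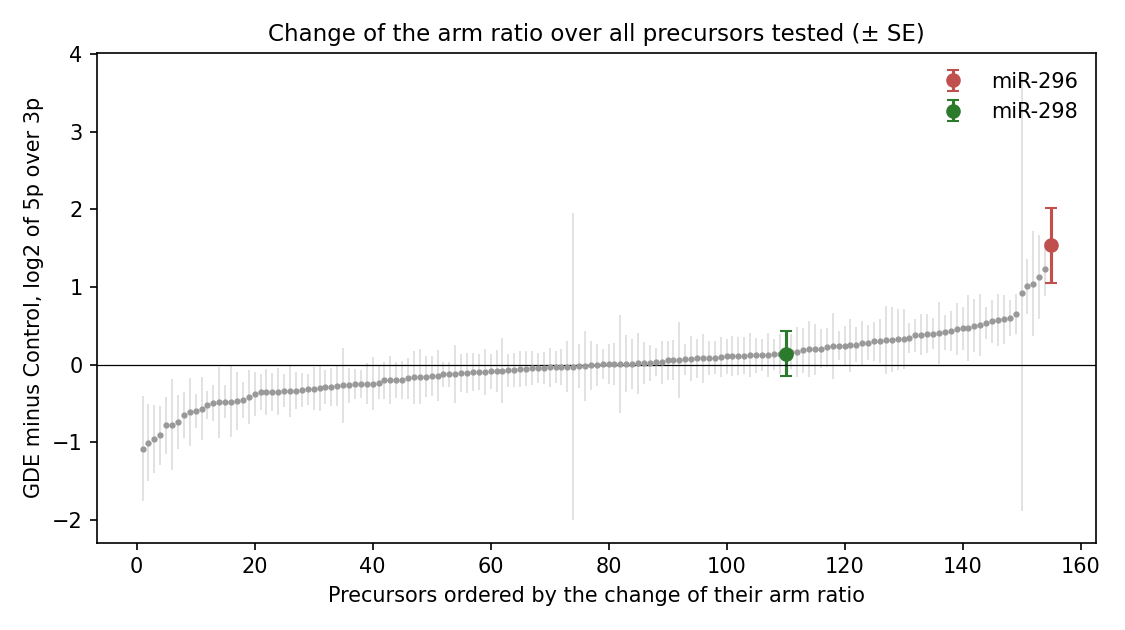
Difference in the log2 ratio of 5p over 3p, GDE minus Control (vertical axis), for the 155 precursors ordered by it (horizontal axis); points are fitted differences and bars ± SE. miR-296 stands at 1.54, at the upper end, and miR-298 at 0.14, among the bulk.

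The 5p arm was higher in 6 of 6 libraries for both precursors. For miR-296 the mean log2 ratio of 5p over 3p was 2.03 ± 1.07 (SD, n = 6); the low GDE values of miR-296-3p, which prompted the choice of the pair, enter it, so it is a description with no test. For miR-298, whose levels did not prompt the choice, it was 2.32 ± 0.33 (SD, n = 6), with an exact two-sided sign-flip p of 0.03125. This is the smallest p that 6 libraries allow, and with any 1 library left out the smallest possible p is 0.0625. It is reached whenever the same arm is higher in all 6 libraries, so it adds nothing to the 6 of 6. The ratio is one of tags, and unequal recovery of the strands was not tested. Across the table, 98 of the 155 precursors had the higher mean on the 5p arm.

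The hairpins were also set against each other. miR-296 summed over both arms was 594 ± 225 RPM in GDE and 855 ± 171 RPM in Control, and miR-298 was 114 ± 1.77 and 135 ± 51.3 RPM (SD, n = 3 each). miR-296 exceeded miR-298 in 6 of 6 libraries, by 7.40, 4.69 and 3.52 times in GDE and 5.44, 7.81 and 6.68 times in Control. The mean log2 ratio of miR-298 over miR-296 was -2.50 ± 0.44 (SD, n = 6). The miR-296-3p values that prompted the choice enter this ratio as well, so it is a description with no test. Adapter ligation does not recover all small RNAs equally, so a ratio between sequences is one of tags and not of molecules. Within the pair, miR-296-3p over miR-298-5p was 1.59, 0.942 and 0.244 in GDE and 2.10, 2.97 and 2.06 in Control, so that miR-296-3p was the lower of the 2 in GDE replicate 3. In GDE replicate 2 their 95% Poisson intervals, 83.3 to 94.2 and 88.6 to 99.7 RPM, overlapped.

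Whether the 4 arms varied together was examined after each group's mean had been taken off, which removes the contrast that chose the pair. Over the 6 libraries the 2 arms of miR-296 had a Pearson r of 0.835 and a Spearman rho of 0.943. The exact permutation p for r within groups was 0.111 (n = 6), or 0.333 after adjustment over the 6 pairs of arms, and the exact p for rho was 0.0833 (adjusted 0.333). Without GDE replicate 1 and Control replicate 1, the libraries farthest from the median of miR-296-5p, r was 0.613. Values without the 2 farthest libraries, here and for the other pairs, use deviations from the means of all 3 libraries of a group. Those means still hold the libraries left out, so the group means of the remaining libraries are not removed. The 5p arms of the 2 hairpins had r = 0.556 and rho = 0.771, with exact permutation p of 0.0833 and 0.111 (n = 6, adjusted 0.333 for each), and r was 0.42 without the 2 farthest libraries.

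The 2 arms of miR-298 had r = 0.582 but rho = 0.143, with exact permutation p of 0.639 and 0.861 (n = 6, adjusted 0.958 and 0.944). Without Control replicates 1 and 2 their r was -0.785. With group means taken anew, it was -0.638 without Control replicate 1 alone and 0.867 without Control replicate 2 alone, so the positive value rests on Control replicate 1. miR-296-3p and miR-298-5p had r = 0.255 and rho = 0.657 (exact permutation p = 0.194 for each, n = 6, adjusted 0.389), and r was 0.772 without the 2 farthest. miR-298-3p had r = -0.0442 and rho = -0.257 with miR-296-5p (exact permutation p = 0.972 and 0.583, n = 6, adjusted 0.972 and 0.875), and r was -0.788 without the 2 farthest. With miR-296-3p it had r = -0.103 and rho = -0.0857 (exact permutation p = 0.806 and 0.944, n = 6, adjusted 0.967 and 0.944), and r was 0.824 without the 2 farthest. No pair passed the threshold. The smallest exact permutation p that the 36 arrangements allow is 0.0278, before adjustment over the 6 pairs. A single pair at that value would still miss the threshold after adjustment, so nothing is concluded from the absence of a pass.

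**Figure D4:**
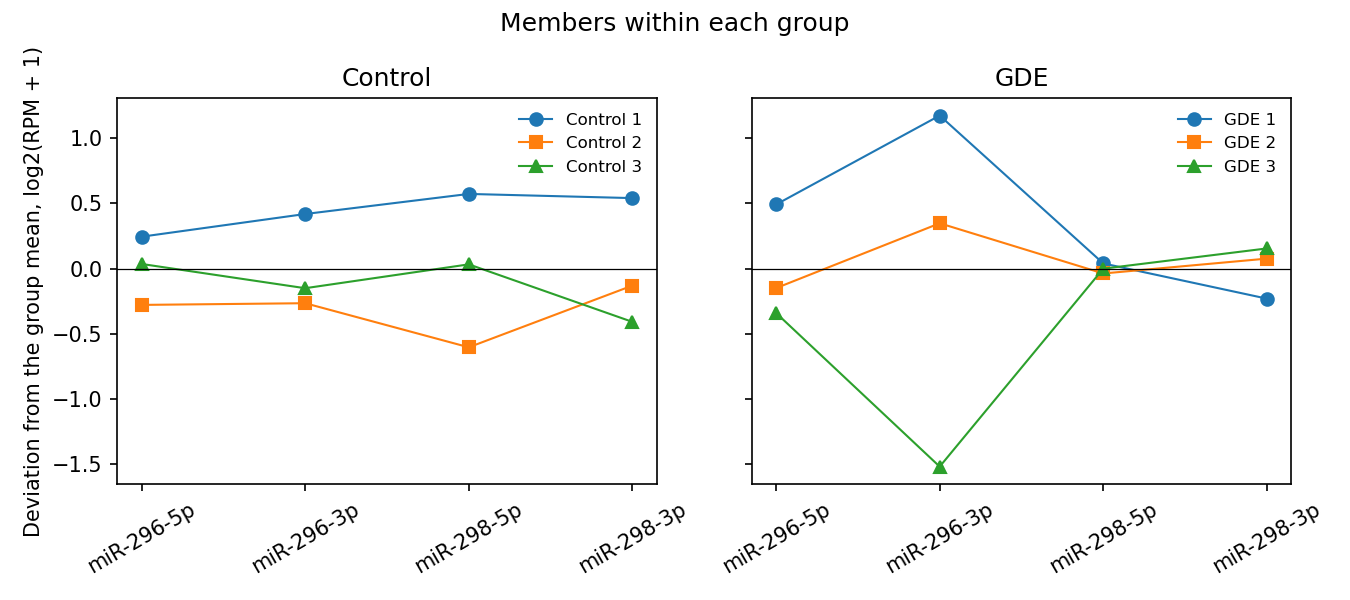
Deviation of each arm from its group mean on the log2(RPM + 1) scale (vertical axis), with a line for each library, in Control and in GDE. Control 1 is above 0 for all 4 arms, and GDE 3 is far below 0 for miR-296-3p while it is near 0 for miR-298-5p.

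The spread of miR-296-3p between libraries was wide in GDE and not in Control. Its log2 levels had an SD of 1.38 in GDE and 0.37 in Control. Among the 281 tested miRNAs between 10 and 1000 RPM, 5, itself included, had an SD at least as large in GDE, and 84 in Control. For miR-298-5p the order was the other way, with an SD of 0.04 in GDE and 0.59 in Control, and for miR-298-3p it was 0.20 and 0.49. For miR-296-5p the SD was 0.44 in GDE and 0.26 in Control. Pooled over both groups, the SD was 1.01 for miR-296-3p and 0.36 to 0.42 for the other 3 arms, beside a median of 0.28 over the 281. GDE replicate 3 lay 2.28 below the mean of the other 2 GDE libraries for miR-296-3p, on the log2 scale, beside a median of -0.16 over those 281. Only miR-532-3p and miR-877-5p were lower there, at -5.12 and -2.43. Control replicate 1 lay above the mean of the other Control libraries by 0.36, 0.63, 0.86 and 0.81 for miR-296-5p, miR-296-3p, miR-298-5p and miR-298-3p, beside a median of 0.27.

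**Figure D5:**
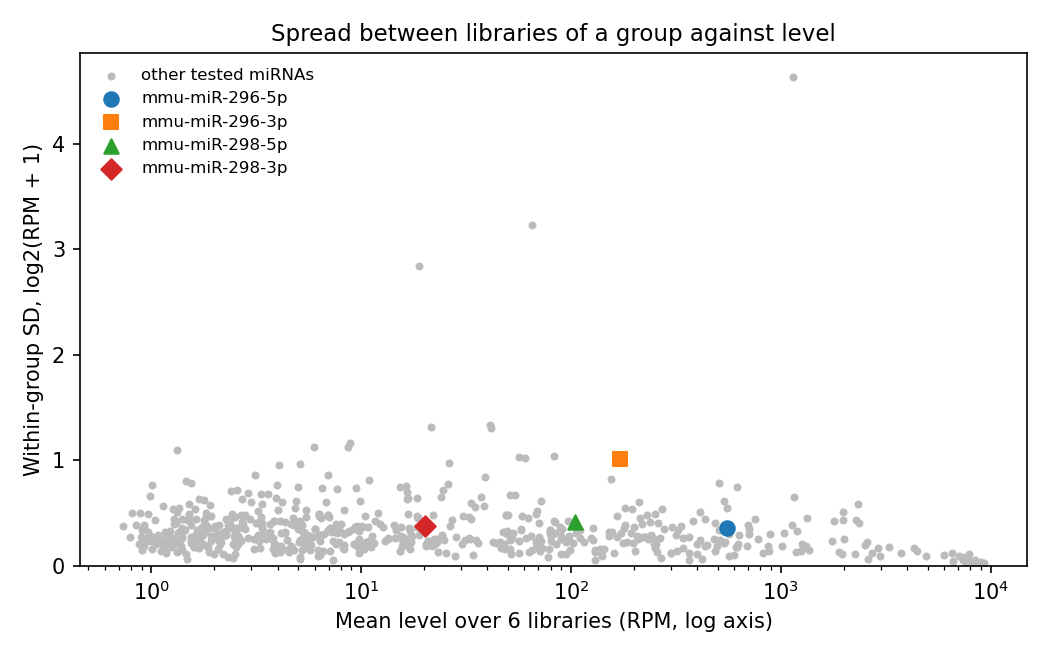
Within-group SD, pooled over GDE and Control, on the log2(RPM + 1) scale (vertical axis) against the mean level over the 6 libraries (horizontal axis, log scale) for the tested miRNAs, with the 4 arms marked. miR-296-3p, at 1.01, lies above most miRNAs of its level, and the other 3 arms lie between 0.36 and 0.42.

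The cells that a dissociated hippocampus can hold besides neural stem cells were followed by their marker miRNAs. The 6 leukocyte and microglia markers summed to 2166 to 2660 RPM in GDE and 1482 to 2203 RPM in Control. Their mean log2 level was higher in GDE for 5 of 6, and the median of their log2 folds was 1.25. Most of the sum was miR-146a-5p, the most abundant of them, with means of 1889 RPM (GDE) and 1628 RPM (Control) and a fold of 0.23. The 3 with separate groups, all higher in GDE, were miR-142a-3p, miR-150-5p and miR-223-3p, named after their values were seen. Their log2 folds were 1.72, 1.28 and 1.55. The marker that was lower in GDE was miR-155-5p, at -0.25, named after its values were seen. The 4 erythroid markers summed to 73.9 to 93.6 RPM in GDE and 35.0 to 69.1 RPM in Control, without overlap. Of these, 2 passed the filter: miR-451a, at 65.3 and 34.5 RPM on average, and miR-486a-5p, at 15.6 and 15.0 RPM. The groups overlapped for miR-486a-5p (log2 fold 0.05), so the separation of the sums rests on miR-451a. The 8 endothelial and mural markers, of interest because miR-296 has been described in endothelium, summed to 388 to 614 RPM in GDE and 361 to 442 RPM in Control, highest in GDE replicate 3. The 7 choroid plexus and ciliated cell markers summed to 2511 to 2711 and 2480 to 3186 RPM, and the 3 oligodendrocyte lineage markers to 209.5 to 264 and 159.7 to 235 RPM. The 3 neuroendocrine markers summed to 212 to 273 and 210.0 to 318 RPM, and the 3 muscle markers to 16.3 to 36.3 and 23.9 to 52.6 RPM. Except for the erythroid list, the ranges of the sums overlapped between the groups in all of these lists. For single markers, groups were separate with GDE higher for 3 leukocyte, 2 endothelial and mural, 1 erythroid and 1 choroid plexus and ciliated marker. The share over all tested was 4.62%. With GDE lower they were separate for 2 choroid plexus and ciliated markers, beside 10% of all tested. No marker of these lists was at 0 in all libraries. Limma called 0 markers in each list, and edgeR and limma-voom did too. At an unadjusted p under 0.05 in limma there were 3 leukocyte, 4 choroid plexus and ciliated, 1 endothelial and mural and 1 erythroid marker and 0 in the other lists, beside 8.63% of all tested. The 4 of the choroid plexus and ciliated list went both ways, with log2 folds of 1.098 for miR-204-5p, 1.21 for miR-211-5p, -0.45 for miR-34b-3p and -0.63 for miR-34c-3p, named after their values were seen. DESeq2 called 1 marker, the leukocyte miRNA miR-150-5p, named after its values were seen, beside 0.77% of all tested. The part of these cells in the level of miR-296-3p was not tested.

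Base composition was set beside the folds without a test. The 32 other tested miRNAs with at least 65% G and C had a median log2 fold of -0.21, with 8 higher and 24 (75.0%) lower in GDE. Over the 456 tested miRNAs with a RefSeq sequence the median was -0.06, and 274 (60.1%) were lower. The part of base composition in the level of miR-296-3p was not tested.

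Along chromosome 2, the nearest precursors with a tested arm lie far from the pair. On the side of higher coordinates these were Mir3091, at 5.99 Mb, and Mir124a-3, at 6.63 Mb. miR-3091-3p averaged 1.12 ± 0.52 RPM in the GDE libraries and 1.69 ± 0.50 RPM in the others (log2 fold -0.36). miR-124-3p, a neuronal miRNA that other precursors also give, was at 239 ± 28.4 and 229 ± 50.8 RPM (log2 fold 0.08). On the side of lower coordinates Mir499 lay at 18.64 Mb, Mir1953 at 22.3 Mb and Mir103-2 at 42.98 Mb. Their arms had log2 folds of 0.13 for miR-499-5p, -0.14 for miR-1953, 0.35 for miR-103-2-5p and -0.32 for miR-103-3p. Of these neighbours, the groups were separate for miR-103-2-5p, with GDE higher, and overlapped for the others. Over all tested, 4.62% had separate groups with GDE higher.

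miRNAs of other imprinted loci were set beside the pair as a list of 31, of which 26 passed the filter. In GDE 16 of them had a higher and 10 a lower mean log2 level, with a median log2 fold of 0.10 beside -0.07 over all 649. Limma, edgeR and limma-voom called 0 of them and DESeq2 called 1, miR-376a-3p (named after its values were seen), beside 0.77% of all tested. At an unadjusted p under 0.05 in limma there were 5 of the 26, beside 8.63% of all. The most abundant were both arms of miR-335, which lies in an intron of the paternally expressed gene Mest. miR-335-3p stood at 142, 162 and 176 RPM in GDE and at 509.8, 324 and 200.2 RPM in Control (log2 fold -1.003), with all GDE libraries lower. miR-335-5p stood at 148, 163 and 154 RPM in GDE and 384, 186 and 138 RPM in Control (log2 fold -0.47), and the groups overlapped. The next 2 by level come from the Dlk1-Dio3 locus, whose miRNAs are expressed from the maternal chromosome. The mean of miR-127-3p was 64.6 ± 6.63 RPM for GDE and 80.4 ± 10.7 RPM for Control, with a log2 fold of -0.31, and that of miR-379-5p was 46.3 ± 13.5 against 69.4 ± 8.72 RPM, with a log2 fold of -0.61. The groups did not overlap for either. In all, 3 of the 26 had separate groups with GDE lower, miR-335-3p and these 2, beside 10% of all tested. With GDE higher there were 4, beside 4.62% of all tested: miR-376a-3p, miR-376b-3p, miR-154-5p and miR-410-3p, named after their values were seen, with log2 folds of 0.95, 0.70, 0.41 and 0.70. Of the 24 tested Dlk1-Dio3 miRNAs, 16 were higher and 8 lower in GDE, with a median log2 fold of 0.12. The arms of miR-483, from Igf2, and of miR-675, from H19, were at most 1.19 RPM in any library and were not tested.

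Other miRNAs with reported targets shared by the pair were given as 2 further lists. Of the regulators reported for Nanog, Pou5f1 or Sox2 besides miR-296-5p, miR-134-5p averaged 4.12 ± 0.88 RPM for GDE and 3.59 ± 0.52 RPM for Control, with a log2 fold of 0.15, and miR-470-5p did not pass the filter. Of the 11 reported regulators of Bace1 or App, miR-298-5p included, 5 were higher and 6 lower in GDE, with a median log2 fold of -0.01. Limma, edgeR, DESeq2 and limma-voom called 0 of them, and 1 had an unadjusted p under 0.05 in limma, beside 8.63% of all tested. miR-9-5p, miR-16-5p, miR-328-3p and miR-29a-3p were the most abundant, with log2 folds of -0.01, -0.05, 0.09 and -0.16. Of these, miR-9-5p and miR-16-5p lie above 5000 RPM, where levels flatten. The 1 with an unadjusted p under 0.05 in limma was miR-29b-3p, named after its values were seen. Its groups did not overlap, with means of 183 ± 28.8 RPM for GDE and 122 ± 26.3 RPM for Control and a log2 fold of 0.59. Separate groups with GDE higher were found for 4.62% of all tested. mRNA was not measured in these libraries, so the levels of the targets are not analysed here.

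The miRNAs whose log2 levels followed each arm most closely were ranked among 316 named miRNAs of at least 10 RPM, by Pearson r over the 6 libraries, which share library and depth. Group means were not taken off here, so the contrast that chose the pair enters r. These are the highest r among 316 over 6 libraries, so they are a description, and shared extreme libraries go with the ranking. For miR-296-3p the 3 were let-7d-5p (r = 0.981), miR-148a-3p (0.977) and let-7e-5p (0.971). All 3 were lowest in GDE replicate 3 and highest in Control replicate 1, as miR-296-3p was, but over narrower ranges: let-7e-5p spanned 1233 to 2998 RPM, with a log2 fold of -0.48. let-7d-5p, at 7056 RPM on average, and let-7g-5p, at 6647 RPM, lie in the range above 5000 RPM where levels flatten. miR-296-5p was followed by miR-6540-5p (r = 0.966) and by miR-466b-3p and miR-466c-3p (r = 0.960 for both), which have identical values. Each of these has the same values as 2 other tested rows, so their places do not hold separate measurements. miR-298-5p was followed by miR-101b-3p (r = 0.965), let-7g-5p (0.942) and miR-3074-5p (0.934), each lowest in Control replicate 2 and highest in Control replicate 1. miR-298-3p was followed by miR-384-5p (r = 0.988), miR-18a-5p (0.987) and miR-92a-1-5p (0.963). No miRNA appears in the list of more than 1 arm.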

How the data were processed

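Small RNA of hippocampal neural stem cells was extracted with TRIzol and made into libraries with the MGIEasy Small RNA kit, per the labels' protocols. The submitters' processing notes name Bowtie2 and mm10, without version or role; not given in the sources used here are the trimming, how a read matching several miRNAs was assigned, and whether molecular identifiers were used. Per the file headers the deposited columns are only called expression. They were read as RPM, since 100% of the nonzero values were whole multiples of 1 step per library within 0.1 tags, which also gives the depth. A value of 0 allows up to 3 tags, or 0.242 to 0.255 RPM.

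Groups and replicate numbers came from the titles. The design named edgeR for counts; as the deposited unit was RPM, limma 3.58.1 (R 4.3.3) with a trend was run on log2(RPM + 1), two-sided, with a Benjamini-Hochberg threshold of 0.05 over 649 miRNAs. This scale understates the change of low miRNAs. edgeR 4.0.16, DESeq2 1.42.0 and limma-voom were run on the recovered tags as alternatives, beside other scalings, filters and pseudocounts (0.1 and 10), a replicate block, and fits that each left out 1 library. The fits were tested on simulated data. Sign-flip and permutation tests were exact (Python 3.11.15, scipy 1.17.1), and hairpins were folded with RNAfold 2.7.2. No library repeated another of its own group: chi-square over its degrees of freedom was 47.1 to 173.1 between replicates of a group. P-values of the group comparison rest on the spread between the 3 litters of a group as deposited, with information borrowed from the other rows fitted. The sign-flip p sets the log2 ratios of all 6 libraries against 0. The permutation p rests on arrangements of the libraries within groups.

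The members, lists and tests were chosen with earlier results of these data known. Besides the 4 arms, the text names the 3 miRNAs most like each and up to 3 neighbouring precursors on either side (2 with higher coordinates had a tested arm). List members are named by level or, where stated, after their values were seen. Replicate numbers were not taken to pair the libraries.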

Additional observations from a re-analysis of the deposited data

How the results depend on the processing

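None of the 4 arms was called under any of the 17 alternatives, while calls over all miRNAs, 2 in limma, ranged from 0, without GDE replicate 3 and Control replicate 1 (an alternative added after the data were seen), to 5, with DESeq2. The count was 1 with limma-voom, with a filter of 100 tags, and without Control replicate 1, Control replicate 3, GDE replicate 2 or GDE replicate 3. The log2 fold of miR-296-3p was negative under all 17, between -2.41 and -0.85, with adjusted p from limma, edgeR or DESeq2 of 0.213 to 0.818. That of miR-298-5p ran from -0.44 to 0.15 with 1 library left out, that of miR-296-5p from -0.53 to -0.11 and that of miR-298-3p from -0.48 to -0.0087. The fold of miR-298-5p was 0.15 without GDE replicate 3 and Control replicate 1, where that of miR-296-5p was 0.0092. The change of the miR-298 arm ratio ran from -0.0937 (without Control replicate 2) to 0.36. With 1 library left out, the mean log2 arm ratio ran from 1.64 to 2.21 for miR-296 and from 2.25 to 2.43 for miR-298. The mean log2 ratio of miR-298 over miR-296 then ran from -2.64 to -2.41. The sign-flip test of the miR-298 arm ratio then misses the threshold, because 5 libraries allow no exact p below 0.0625. Within groups, r ran from -0.967 to 0.534 for miR-296-5p and miR-298-3p, from -0.726 to 0.346 for miR-296-3p and miR-298-3p, and from -0.638 to 0.867 for the arms of miR-298.

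With the replicate number as a replicate block, the log2 fold of miR-296-3p was -1.82 (adjusted p = 0.217 in limma), with 2 calls over all miRNAs and none among the arms. Same-numbered libraries did not deviate together (r of -0.03, -0.12 and -0.03 for numbers 1, 2 and 3), and no GDE library correlated best with its own number. With 3 libraries a group, 1 library can move a fold by more than its SE; the least abundant arm, miR-298-3p, rests on 178 to 383 tags per library.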
